A study of Caenorhabditis elegans with 2 samples.

Results

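The microRNA pathway of Caenorhabditis elegans was examined for places where chromatin was precipitated with the zinc-finger protein LIR-1, a relative of LIN-26. Its 7 genes here, taken by name from 19973 nuclear protein-coding genes, were drsh-1 and pash-1, dcr-1, alg-1 and alg-2, and ain-1 and ain-2. The set was selected on the signal and position of a strong peak near ain-1, so the values below are descriptive and no test was made on them. The series held 2 libraries, biological replicates 1 and 2 of 1 group and of whole animals, made by chromatin immunoprecipitation and sequencing with an antibody against GFP. The animals were of strain RW12318 and carried the allele st12318, a TY1::EGFP::3xFLAG tag put into lir-1 on chromosome II with CRISPR. They were young adults at 63 hours, grown from bleached and starved L1 larvae. There was no second genotype or treatment, and an untagged library was not used here. Whole animals were used, so a peak cannot be given to a tissue, and precipitation was not told apart from direct binding.

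MicroRNAs are short RNAs that silence messenger RNAs with matching sites. In the nucleus the Drosha enzyme DRSH-1 and its RNA-binding partner PASH-1 cut hairpins out of primary transcripts, and in the cytoplasm the Dicer enzyme DCR-1 trims the hairpins to short duplexes. The Argonaute proteins ALG-1 and ALG-2 load the mature strand, and AIN-1 and AIN-2, the worm's GW182 family proteins, link the loaded Argonaute to factors that repress and degrade the target. In worms the pathway is known for timing larval development.

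Of the 7 genes, ain-1 had a site and the other 6 had none. A site is a peak of the authors' conservative set, which held 1209 peaks with an irreproducible discovery rate (IDR) of 0.00997 or lower between the libraries. It was counted for a gene when its summit lay within 1000 bp upstream to 200 bp downstream of the 5′ end, or in the gene. By the same rule 5.62% of all nuclear protein-coding genes had a site, and 4.42% in the promoter window alone; it was 8.28% of the 3997 whose length lay between the shortest and the longest of the 7, 3421 and 8315 bp. The count of 1 rests on ain-1, for which the set was drawn up, and says nothing about the pathway as a whole. Peak heights are scores from the authors' peak caller, called signal here. They had a median of 86.4 over the sites and 28.4 over the 36486 peaks of the ranked list from which the sites come.

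AIN-1 binds the microRNA-loaded Argonaute. Its gene (WBGene00015547, chrX:16613451-16616871, plus strand) has 1 annotated transcript, and RefSeq places its 5′ end at the same base as Ensembl. The site lay in intergenic sequence at chrX:16612324-16612596 on ce11, with its summit 986 bp upstream of the 5′ end. Its signal was 170.0 in replicate 1 and 151 in replicate 2, a mean of 160.7 ± 13.2 (SD, n = 2), and 330.1 for both libraries together. The libraries were close to each other: replicate 1 was 1.12 times replicate 2, within the middle range of this ratio over all sites (median 1.02, quartiles 0.839 and 1.22). The library summits lay 7 and 12 bp downstream of the joint summit, 5 bp apart. The joint signal was 3.82 times the median site and 11.6 times the median ranked peak, and the IDR was at the lowest value the list gives, 1e-05. The site ranked 11 of 1209, and in the replicates' own lists it ranked 11 of 834 and 12 of 580.

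The sequence under the ain-1 site is shown because this site carries the result. It is the plus strand of ce11, 5′ to 3′, the direction of ain-1, from the first to the last base of the peak. Capitals mark matches, on either strand, to the 5 6-mers whose share of windows differed most between sites and their flanks, and to GAGCGC. The first was GAGAGA, which overlaps the second, AGAGAG. Next came ACGCAG, which overlaps the motif placed 5, GACGCA; the motif ACGCGC stood between them at place 4. The motif GAGCGC, at place 7, was added after the letters of this site were seen.
ain-1 site: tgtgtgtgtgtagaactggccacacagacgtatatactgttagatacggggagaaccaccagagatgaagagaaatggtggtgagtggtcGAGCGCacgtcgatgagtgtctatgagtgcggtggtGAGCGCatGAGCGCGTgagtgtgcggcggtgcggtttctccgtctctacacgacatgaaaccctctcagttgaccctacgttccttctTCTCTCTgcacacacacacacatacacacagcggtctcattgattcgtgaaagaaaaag
The summit is base 142 of the 273. Of the 5 6-mers, the first matched at base 215 and the second, which overlaps it, at 216, both on the strand not shown. The fourth, ACGCGC, matched once at base 137, also on the other strand. The added motif matched 3 times, at 91, 127 and 135, and the last of these overlaps the ACGCGC match. The window of 50 bp to either side of the summit held ACGCGC, as did 14.5% of such windows at all sites and 1.28% of windows centred 500 bp to either side. Over 300 bp, the share was 21.7% round the site summits and 5.92% at all promoters. The added motif was in that window as well, and it was found in 14.0% of site windows and 2.27% of flanking windows. Over 300 bp it was in 21.3% of sites and 5.45% of promoters. ACGCGC was picked for its difference between these same site and flanking windows, so that contrast follows from the choice. GAGCGC was picked from the letters of this site, so its matches here do too. The ain-1 window was 59.4% G or C, above the upper quartile of site windows (53.5%, median 48.5%), while flanking windows had a median of 36.6%. Each of the 238 stretches of 36 bp within the peak occurs once in the nuclear genome of the reference, so no stretch of that length has another exact copy.

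The ain-1 site lay further from its gene than most promoter sites. Distance is taken here from the nearest protein-coding 5′ end, also where a site lies in the window of a further gene. By that measure the median promoter site was 212 bp upstream. Among the 106 promoter sites 500 to 1000 bp upstream the median signal was 93.4 and ain-1 ranked 3. Among the 20 that lay 900 bp or more upstream it ranked 1. The set was selected on the signal and position of this peak, so these ranks describe that choice only. The summit was 14 bp inside the edge of the window, so with a window of 500 bp upstream and 100 bp downstream 0 of the 7 genes had a site. The promoter window of no other protein-coding gene held the site. Between 1000 and 2000 bp upstream, just outside the window, 4 of the genes had ranked peaks: ain-1 with signals of 16.3 and 25.3, ain-2 with 41.9, alg-1 with 40.5, and drsh-1 with 38.3 and 27.6, and 0 of these were sites. The next protein-coding gene upstream, F59C12.3, lies on the opposite strand with its 5′ end 3926 bp from that of ain-1, and no ranked peak lay in its promoter window. The next conservative site was 7725 bp away, with a signal of 78.7, at a tRNA gene and a non-coding RNA gene in an intron of F59C12.3.

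**Figure D1:**
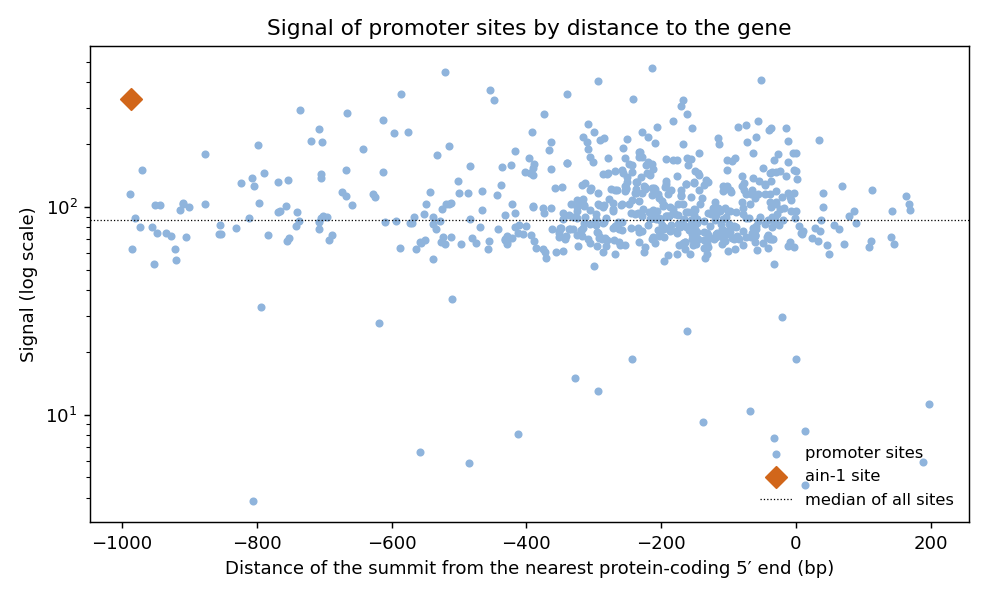
Signal of promoter sites (log scale) against distance from summit to the closest 5′ end of a protein-coding gene in bp, negative upstream; each point is a site and the dotted line is the median of all sites, 86.4. The ain-1 site, for whose signal and position the genes were chosen, is marked at 986 bp upstream with a signal of 330.1.

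The promoter sites next to ain-1 in signal belonged to genes of other kinds. Likeness here is the rank of the joint signal in 1 list. Just above were spat-3 (351.0), rpl-15 of the large ribosomal subunit (349.0) and the germline helicase gene mog-4 (330.5). Just below were cdc-48.1, an AAA ATPase gene (328.2), rpl-35 (327.3) and Y17G9B.5 (305.8). Their replicate means ran from 155.5 ± 4.97 at Y17G9B.5 to 176.8 ± 20.7 at rpl-15 (SD, n = 2). The mean of ain-1 lay within that range, so the order of these neighbours is not firm against the spread between libraries. Their summits were 168 to 586 bp upstream, closer to the gene than that of ain-1.

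Within ain-1 there were 3 more ranked peaks, and 0 of them were sites. One lay 53 bp downstream of the 5′ end, in the first exon, with a signal of 47.4 and 24.5 and 24.9 in replicates 1 and 2. Its IDR of 0.0889 left it out of the sites, and its libraries differed by less than those at the upstream site. The others lay 733 bp downstream in an exon, where signal was 36.7 and IDR 0.686, and 1354 bp downstream in an intron, with 31.0 and 0.866. An IDR of 0.866 is the highest in the ranked list and is held by 44.4% of its peaks.

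ain-2 (WBGene00015007, chrI:4653467-4660153, plus strand) encodes the other GW182 family protein and has 6 annotated 5′ ends. It had no ranked peak in its promoter window and 7 in the gene, of which 0 were sites. The strongest by signal lay in an intron 303 bp downstream of the 5′ end, with a joint signal of 45.8. The libraries disagreed there, with 32.1 in replicate 1 and 10.7 in replicate 2, and the IDR was 0.866. A peak 502 bp downstream rests on the same library intervals and had a joint signal of 10.1. The second strongest, in the 3′ untranslated region, had 44.4, with 24.0 and 19.8 in the replicates and an IDR of 0.314. The first of these peaks lies also in the promoter window of ptps-1, which is on the opposite strand with 560 bp between the genes.

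alg-1 (WBGene00000105, chrX:13949110-13956261, plus strand), which encodes a microRNA Argonaute, held the strongest peak of the 6 genes without a site. Its summit lay in an exon 3430 bp downstream of the 5′ end, at chrX:13952540. The signal was 63.1 jointly, 22.0 in replicate 1 and 37.8 in replicate 2 (29.9 ± 11.2, SD, n = 2). Replicate 2 was the higher, and the IDR of 0.0592 was the lowest of any of these genes' peaks outside the sites, ahead of the ain-1 peak in the first exon. The site with the highest IDR, by comparison, had 0.00997 and a signal of 55.2. The joint signal was near the 10th percentile of the sites, 63.0, while the library mean was below that of ccf-1, the site at the threshold (31.4 ± 0.659, SD, n = 2). In the promoter window alg-1 had 1 ranked peak, with its summit 156 bp downstream of the 5′ end, inside the snoRNA gene K02B9.10 and the 5′ untranslated region. Its signal was 33.8, with 11.7 and 24.5 in the libraries and an IDR of 0.743. RefSeq starts alg-1 379 bp further downstream, which leaves that peak upstream of the gene. The other 3 peaks had signals of 20.1 to 33.1 and IDR of 0.625 or higher. Of these, the peak 1865 bp downstream had a signal of 31.3. alg-1 has 4 annotated 5′ ends, and this peak lay less than 1000 bp upstream of the nearest of them. It is counted here as in the gene, because the promoter window is taken from the first 5′ end.

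alg-2 (WBGene00000106, chrII:873212-879885, plus strand) encodes the paralogous Argonaute. Its promoter window held no ranked peak, and the gene held 2. The stronger, in an exon 3428 bp downstream, had a joint signal of 40.2, with 18.2 and 17.3 in replicates 1 and 2 and an IDR of 0.511. The weaker, in an intron, had 27.1 and an IDR of 0.866. Both libraries gave nearly the same values at the stronger peak, a little above the medians of all ranked peaks in each library, 14.9 and 16.4. Its joint signal was above the joint median of 28.4, and that of the weaker peak was below it.

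dcr-1 (WBGene00000939, chrIII:8071967-8080281, minus strand), the only Dicer gene of the worm, had no ranked peak in its promoter window and 3 in exons. Their joint signals were 25.1, 19.3 and 33.2 at 226, 2332 and 2829 bp downstream, with IDR of 0.598 or higher. dcr-1 and apc-2, which encodes a subunit of the anaphase-promoting complex, face away from each other with 347 bp between them, and the first of these peaks also falls in the apc-2 window. The gap between the genes held no ranked summit.

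drsh-1 (WBGene00009163, chrI:9781324-9785724, minus strand) follows the tubulin gene tba-1 on the same strand after 56 bp. Its window therefore lies mostly within tba-1 and need not be the promoter in use. It held 1 ranked peak, 403 bp upstream in a tba-1 exon, where signal was 22.6 and IDR 0.866, and the gene held another with 31.2. Upstream of tba-1 there was a conservative site 371 bp from its 5′ end, with a joint signal of 56.7, library signals of 29.3 and 34.7 (32.0 ± 3.85, SD, n = 2) and an IDR of 0.00828. Whether drsh-1 shares that promoter was not tested.

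pash-1 (WBGene00011908, chrI:10598673-10606621, plus strand) had no ranked peak at all over the gene and the 1000 bp upstream. It follows T22A3.6 on the same strand after 183 bp, and no ranked peak lay in the promoter window of that gene either. Of the 3997 protein-coding genes of similar length, 798 likewise had none in the same span.

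**Figure D2:**
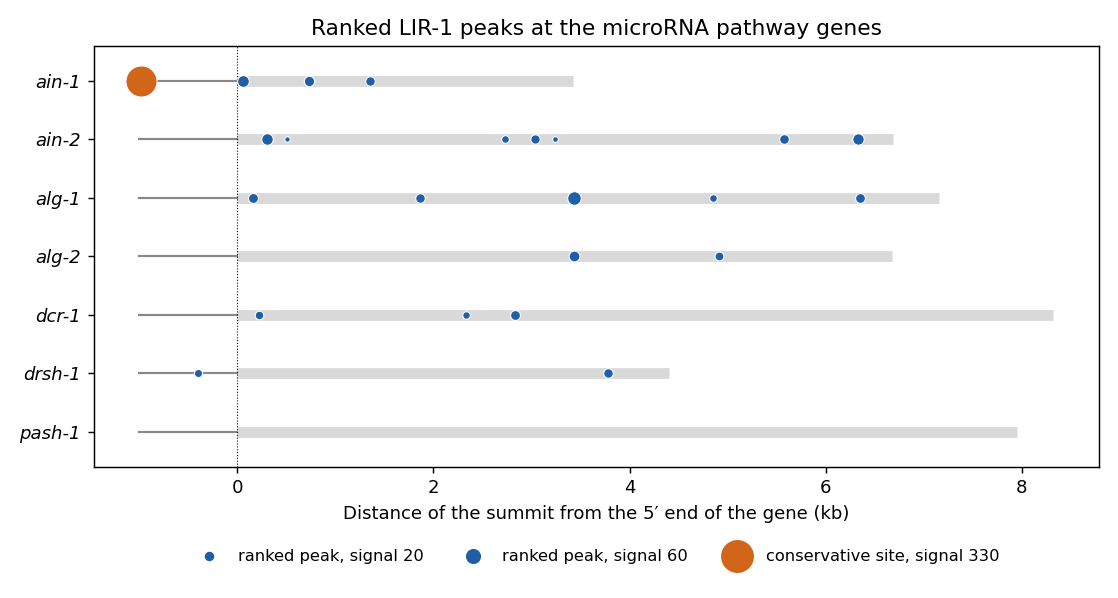
Ranked peaks at each of the 7 genes by distance of the summit from the 5′ end in kb, with the gene as a grey bar and the upstream 1000 bp as a line; the area of a point is in proportion to its joint signal. The ain-1 upstream site (330.1) is the only conservative site, and the other 22 peaks run from 10.1 to 63.1.

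Across the 7 genes the 22 peaks that were not sites had a median signal of 31.3, near the 28.4 of all ranked peaks, and 14 lay above that value. Of these 22 peaks, 11 had the highest IDR in the list, as did 44.4% of all ranked peaks. Pooled over their summed span, the genes and their upstream 1000 bp held 0.446 ranked peaks per kb. Taken gene by gene, the density ran from 0 at pash-1 to 0.911 at ain-2, with drsh-1 in the middle at 0.370. The gene-by-gene density over protein-coding genes of similar length had a median of 0.351 (quartiles 0.153 and 0.603). ain-1, at 0.905 per kb, and ain-2 lay above the upper quartile, as did alg-1 at 0.613. The ain-1 density and the total of 0.446 count the site on which the set was selected. At ain-2 the peaks 303 and 502 bp downstream rest on the same library intervals, as do those at 3038 and 3243 bp. The ain-2 density counts each such peak. In all, 6 of the 7 genes had a ranked peak, where 63.6% of all protein-coding genes and 80.0% of those of similar length did. In the promoter window 3 had one, ain-1, alg-1 and drsh-1, against 38.6% of all protein-coding genes. These counts lie near the background.

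The letters at the strongest alg-1 peak, the nearest of the other genes to a site, can be set beside those of ain-1 and of the strongest promoter sites of cofactor genes, nhl-2 and vig-1. Each runs from 50 bp before to 50 bp after the summit in the direction of its gene on ce11. They are chrX:13952490-13952590 (plus), chrIII:4899861-4899961 (minus) and chrII:1320591-1320691 (plus), with capitals as before.
alg-1 peak: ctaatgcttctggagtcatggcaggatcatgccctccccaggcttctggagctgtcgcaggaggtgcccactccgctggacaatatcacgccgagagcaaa
nhl-2 site: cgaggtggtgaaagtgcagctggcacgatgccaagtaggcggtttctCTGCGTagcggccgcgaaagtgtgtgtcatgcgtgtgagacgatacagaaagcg
vig-1 site: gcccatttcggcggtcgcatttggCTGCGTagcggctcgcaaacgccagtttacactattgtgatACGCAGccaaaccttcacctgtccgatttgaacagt
The alg-1 window held 0 of the 5 6-mers. The nhl-2 window held ACGCAG once, from base 48 and across the summit, and the vig-1 window held it 2 times, once on each strand, at 25 and 66. ACGCAG was in 15.7% of site windows and 2.40% of flanking windows, and over 300 bp in 27.0% of sites and 8.23% of promoters. Of the 22 peaks of these genes that were not sites, 2 windows (9.09%) held any of the 5 6-mers, at ain-1 53 bp and alg-1 1865 bp downstream. The share was 46.7% for all sites and 12.1% for flanks. These shares of sites and flanks differ by construction, because the 6-mers were picked for that difference in the same windows.

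**Figure D3:**
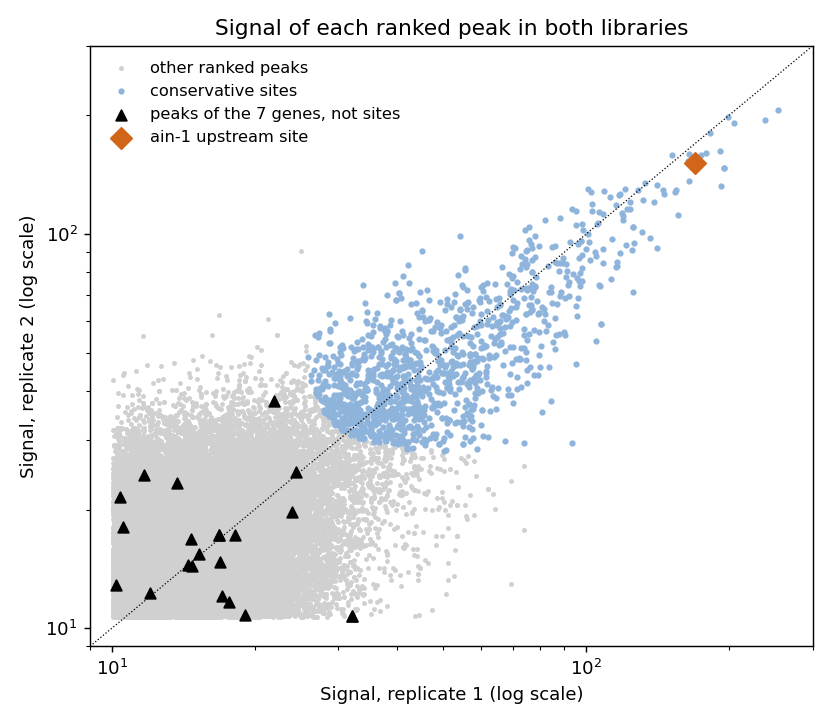
Signal of every ranked peak in replicate 1 against replicate 2, both on log scales; the dotted line marks equal signal. The ain-1 site lies at 170.0 and 151 among the strongest sites, and the other peaks of the 7 genes lie in the cloud of ranked peaks that are not sites.

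Other genes of small RNA pathways were listed under 6 headings, and 72 of 75 symbols matched the annotation. Of the 72 genes, 15 (20.8%) had a site in the promoter window or the gene, where 5.62% of all protein-coding genes did. In the promoter window alone 12 of the 72 had one, beside 4.42% of all protein-coding genes. The 15 had 18 sites with a median signal of 89.2, beside 86.4 for all sites, and 9 lay above that median. The lists were drawn up with earlier results of these data known, and 7 of the 15 genes share a summit with the window of another protein-coding gene, so the share is a description only. The shorter list of replicate 2 alone gave 8 genes, beside 3.01% of all protein-coding genes. That of replicate 1 alone gave 10, beside 4.28%, and the stronger 50% of sites gave 9, beside 3.25%. With each site given to its nearest 5′ end alone the count was 10, beside 5.26% of all protein-coding genes. That count left out nhl-2, hsp-90, alg-5, pqn-59, lin-46 and ran-1 and took in lin-41.

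Of 11 cofactors and partners of the microRNA silencing complex 5 had a site (45.5%), where 5.62% of all protein-coding genes did. nhl-2, which encodes a TRIM-NHL protein that adds to silencing by the complex, had a signal of 119.5 in replicate 1 and 108.2 in replicate 2 (113.9 ± 7.97, SD, n = 2; 228.1 jointly). Its summit was 826 bp upstream, in an exon of a non-coding RNA gene and in the window that it shares with tag-340, whose 5′ end is nearer. The chaperone gene hsp-90 had 108.4 and 112.6 (110.5 ± 2.99) at an intronic summit 851 bp downstream, which also lies in the window of C47E8.4. vig-1, which encodes a component of the silencing complex, had 85.9 and 84.7 (85.3 ± 0.813) 396 bp upstream, with no other gene sharing it. At these sites of nhl-2, hsp-90 and vig-1 the libraries lay close together. Over all 18 sites the ratio of replicate 1 to replicate 2 ran from 0.623 at pqn-59 to 1.76 at the stronger lin-14 site. The quartiles of this ratio over all conservative sites were 0.839 and 1.22. hrpk-1, an hnRNP K homologue, had joint signals of 103.2 in an intron and 70.4 upstream, and pqn-59 had 97.8 in a window shared with taf-4.

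The shares with a site under the other headings ran from 7.69% to 42.9%, beside 5.62% of all protein-coding genes. Of 13 other Argonaute genes 1 had a site (7.69%). It was alg-5, which encodes an Argonaute of microRNAs in the germline, at 106.2 jointly (56.6 ± 6.19). The site lay in the window of the histone genes his-67 and his-68. Of 12 genes for partners of Dicer and RNA interference 1 had a site (8.33%), ego-1, a germline RNA-dependent RNA polymerase gene (82.4). A second of its peaks in the set, with 27.7, rests on the same library intervals. Of 19 genes of deadenylation, decapping and decay 3 had one (15.8%). They were ntl-2 of the CCR4-NOT complex (114.3), the P body helicase gene cgh-1 (96.1) and the deadenylase gene ccf-1 (55.2). The ccf-1 site stood at the threshold with an IDR of 0.00997, and ccf-1 shares its window with trap-4. Of 10 regulators of microRNA processing and turnover, the exonuclease gene xrn-2 (67.5) and the transport GTPase gene ran-1 (73.2) had one. The ran-1 summit lay in exons of the non-coding RNA genes K01G5.12 and K01G5.11 and in the dkc-1 window. Of 7 heterochronic genes and microRNA targets 3 had one (42.9%). They were lin-46 upstream (74.6), lin-14 at 2 introns (116.1 and 72.4) and daf-12 at an intron (65.7). The lin-46 summit lay in the 5′ untranslated region of R186.8 and in the windows of R186.8 and R186.3. lin-14 and daf-12 are 20312 and 30968 bp long, against a median of 2027 bp, and long genes have more room for a site. The site of ain-1 was stronger than each of these 18, but ain-1 was chosen for that signal, so the order follows from the choice.

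**Figure D4:**
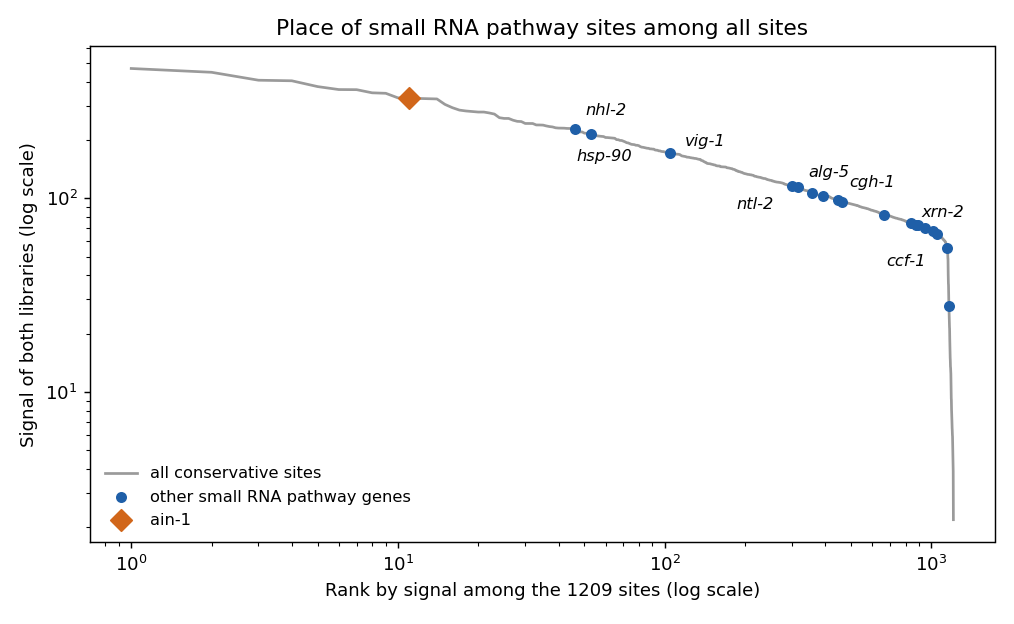
Joint signal of the 1209 conservative sites in order of rank, both axes on log scales, with ain-1 and the 18 sites of other small RNA pathway genes marked. ain-1, chosen for its signal, stands at rank 11, nhl-2 at 46, hsp-90 at 53 and vig-1 at 105. The rest lie further down the curve.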

How the data were processed

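Peaks of 2 immunoprecipitated libraries, replicates 1 and 2 of 1 group, were used. Their manifests say that the authors called peaks on ce11 from filtered alignments with a control, itself not used here. Aligner, caller and the scaling of the deposited heights, which are scores, are not stated in what was available to read. For each ranked peak the deposited files give −log10 of the global IDR, turned back to IDR here. The files give no read totals, so depth is unknown and no interval was made from it.

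Coordinates are 1-based on ce11, the same assembly as WBcel235; gene models came from Ensembl release 115 and sequence from RefSeq. All sites ended inside the reference chromosomes. The ranked list has unnamed library columns: 18602 intervals of the first and 18791 of the second occur in the ranked lists of replicates 1 and 2 respectively, and 0 in the other's, so they were read as those replicates. A peak was placed by its summit. Windows of 50 bp to either side of the summits were searched for 6-mers and for chosen motifs on both strands, with shares only. Named were all 7 genes with their strongest peaks, genes sharing a window, the 3 promoter sites next above and below ain-1 in signal, and listed genes with a site. The members and lists were chosen with earlier results of these data known; GAGCGC, nhl-2, vig-1 and alg-1 were picked for print after values were seen. The placing of summits was tested on simulated data. Python 3.11.15, numpy 2.4.6 and pandas 2.3.3 were used. Alternatives were the other series set, each replicate's own list, other windows, other 5′ ends, nearest gene and the stronger 50% of sites.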

Additional observations from a re-analysis of the deposited data

How the results depend on the processing

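Under every alternative tried but the narrow window (500 bp upstream to 100 bp downstream, or in the gene), ain-1 was the 1 member with a site; there 0 members had one. The cause is the construction: the summit lies 986 bp upstream. The signal of ain-1 was 151.4 and 170.0 in the replicates alone, and its rank ran from 11 to 12. The share of protein-coding genes with a site was 3.01% and 4.28% in the own lists of the replicates and 3.25% with the stronger 50% of sites. The other small RNA pathway genes with a site numbered 8 and 10 in the replicates' own lists and 9 with the stronger 50%; these lists hold fewer peaks. GAGAGA, picked for its difference between sites and flanks, was in 20.3% of site windows, 13.9 points above the flanks. The difference was 7.82 points with 25 bp and 21.1 with 100 bp to either side of the summit. Such windows hold fewer or more letters. The RefSeq 5′ ends and GAGCGC were added after the data were seen. Of 38 alternative values 31 stayed within 1.5 times the first value or within 1 SD of it. The 31 include the ain-1 signal of each replicate alone, which with n = 2 lies within 1 SD of the mean by construction. They also include counts that rest on ain-1, chosen for its signal, so the tally is not a measure of stability. No paired analysis was possible because there is 1 group. Depth, an untagged control and the tissue of origin limit what the peaks show.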

Other observations

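The 18 sites of other small RNA pathway genes are part of the 1209. Of their summit windows 8 (44.4%) held at least 1 of the 5 6-mers, near the 46.7% of all sites. They were those of nhl-2, hsp-90, vig-1, alg-5, hrpk-1, cgh-1, lin-46 and daf-12. The alg-5 window held 4 of the 5, and that of the stronger hrpk-1 site held 3. The median G or C content of the 18 windows was 47.0%, and that of the 22 peaks of the 7 genes that were not sites was 44.6%. Of all 1209 site windows, 3 held GAGCGC at least 3 times, as did 1 of 2418 flanking windows; the ain-1 window held it 2 times.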
